A study of Rattus norvegicus with 31 samples.

Results

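Cyp2b1 and Cyp2b2 are rat genes of 1 cluster on chromosome 1 for cytochrome P450 enzymes of the 2B subfamily, known as the main phenobarbital-inducible P450s of rat liver. They were taken from the liver RNA-Seq tables by symbol, as the rows named Cyp2b1 (ENSRNOG00000033680) and Cyp2b2 (ENSRNOG00000020775), 2 of 26312 genes counted. Both genes had low levels in the livers of control rats and were higher in every one of the 23 treated rats than in any of the 8 controls. Against control, the fitted rise of Cyp2b1 was between 36.6-fold and 519-fold in the 6 treatments, and that of Cyp2b2 between 12.6-fold and 62.1-fold. The mixture of imazalil and clothianidin gave the smallest fitted rise of both genes. No difference between treatments passed the main test for either gene after adjustment over all genes.

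The animals were young adult female Wistar rats (Crl:WI) gavaged daily for 28 days, all of them with an aqueous carboxymethyl-cellulose vehicle, and each library came from the liver of 1 rat. The control group received vehicle alone (n = 8). Thiacloprid (THI) was given at 108 mg/kg body weight per day (n = 4), imazalil (IMZ) at 93 mg/kg (n = 4) and clothianidin (CTD) at 288 mg/kg (n = 3, as not all rats of that group lived to the end of the study). The mixtures were THI + IMZ at 54 and 46 mg/kg, THI + CTD at 54 and 134 mg/kg and IMZ + CTD at 46 and 135 mg/kg (n = 4 each). THI and CTD are neonicotinoid insecticides, and IMZ is an imidazole fungicide. RNA-Seq covered the high dose level of the study, so no dose-response could be drawn, and the compounds were compared at doses that differ. The libraries held between 31.8 M and 101.2 M counts (median 60.45 M in controls, 40.2 M in treated rats).

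Cytochrome P450 enzymes sit in the membrane of the endoplasmic reticulum, where NADPH-cytochrome P450 reductase supplies them with electrons to oxidize drugs, steroids and other lipophilic molecules. Transcription of the Cyp2b genes is classically driven by the constitutive androstane receptor CAR (gene Nr1i3), which moves to the nucleus after phenobarbital or many other chemicals and binds an upstream enhancer as a heterodimer with a retinoid X receptor. The pregnane X receptor PXR (Nr1i2) shares part of its binding sites and target genes, Cyp3a genes among them. In unstressed rat liver both Cyp2b1 and Cyp2b2 are expressed at low levels, and their mRNAs and proteins are very alike.

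The bases just before the start of each gene are shown because they let a reader see how closely the pair resemble each other, and how Cyp2b3, a further gene of the same cluster that did not rise, departs from them. The sequences are those of RefSeq on the GRCr8 assembly, read 5′ to 3′ on the plus strand of chromosome 1. The window of Cyp2b1 was chr1:90645869-90646097, that of Cyp2b2 chr1:90722031-90722242 and that of Cyp2b3 chr1:90780242-90780467. Each window ends just before the RefSeq start of the gene, and their lengths were 229, 212 and 226 bases. Capitals mark the positions at which Cyp2b1 and Cyp2b2 differ from each other.
Cyp2b1: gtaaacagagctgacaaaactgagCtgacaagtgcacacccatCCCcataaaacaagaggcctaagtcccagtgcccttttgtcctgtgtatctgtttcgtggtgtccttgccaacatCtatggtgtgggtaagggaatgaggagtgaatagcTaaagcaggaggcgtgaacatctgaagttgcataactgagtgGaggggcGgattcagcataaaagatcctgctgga
Cyp2b2: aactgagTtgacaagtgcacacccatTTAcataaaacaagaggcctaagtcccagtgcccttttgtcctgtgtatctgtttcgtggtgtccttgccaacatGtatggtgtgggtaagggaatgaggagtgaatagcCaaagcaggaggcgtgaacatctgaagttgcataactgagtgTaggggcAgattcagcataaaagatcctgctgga
Cyp2b3: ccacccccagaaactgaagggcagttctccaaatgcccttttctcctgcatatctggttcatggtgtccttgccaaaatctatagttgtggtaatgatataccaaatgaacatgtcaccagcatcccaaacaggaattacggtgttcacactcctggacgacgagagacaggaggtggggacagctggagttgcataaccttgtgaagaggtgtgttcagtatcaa
Over the 212 bases that the windows of Cyp2b1 and Cyp2b2 share, 204 were identical (96.2%) and 8 differed, with no gap. Cyp2b3 was identical to Cyp2b1 at 57.1% and to Cyp2b2 at 55.3% of the 226 aligned positions. Gaps took up 49 of these positions in each case, and 48 and 52 positions held differing bases. The letters AGGTCA and AGTTCA are hexamers of the kind bound by CAR and PXR with a retinoid X receptor. They were searched on both strands of the full promoter entries of 300 bases. These entries nominally hold 250 bases before and 50 after a start, and the RefSeq gene starts of the 3 genes fell within the first 250. AGGTCA was present in 16.2% and AGTTCA in 14.5% of all 33469 promoters. Neither was present in the entries of the 3 genes, nor were TATAAA, found in 14.2% of promoters, and CCAAT, found in 37.5%. These windows lie nearer to the gene than the enhancer named above, and a window without a match only lacks those letters.

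Levels are given as counts per 1000000 library counts (CPM) after TMM scaling, edgeR's adjustment for library composition. CPM is not divided by transcript length, so the levels of different genes are not ranked against each other. In the controls Cyp2b1 ranged from 0.0302 to 0.998 CPM with a median of 0.379 CPM. These levels rested on 1 to 66 counts per library. Few reads of the controls were thus counted for Cyp2b1, and the library with 1 count, control replicate 2, was the smallest control library.

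In the 4 THI rats Cyp2b1 stood at 325, 221, 331 and 180 CPM. In the 4 IMZ rats it was 37.7, 472, 110 and 13.5 CPM, and in the 3 CTD rats 14, 179 and 20.9 CPM. THI thus gave a narrow band of high levels, while 1 IMZ rat and 1 CTD rat stood well above the others of their group. Among the mixtures, the THI + IMZ rats had 373, 116, 161 and 41.1 CPM of Cyp2b1. The THI + CTD rats had 77.3, 403, 200 and 217 CPM, and the IMZ + CTD rats 55.6, 8.12, 6.23 and 4.62 CPM. Except for 1 rat at 55.6 CPM, the IMZ + CTD rats lay below every rat of the other treatments. The lowest treated rat, of IMZ + CTD, was still 4.63-fold above the highest control.

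Cyp2b2 ranged from 1.51 to 12.1 CPM in the controls with a median of 4.70 CPM, on 50 to 798 counts per library. It was 293, 323, 467 and 273 CPM in the THI rats. In the IMZ rats it was 120, 468, 268 and 79.6 CPM. Cyp2b2 was thus already measurable in each control, and its IMZ group was again the more scattered. The CTD rats had 117, 421 and 212 CPM of Cyp2b2. The THI + IMZ rats had 406, 316, 341 and 124 CPM, and the THI + CTD rats 272, 525, 408 and 310 CPM. The same CTD rat, replicate 2, was highest for both genes. The IMZ + CTD rats had 93.8, 66.7, 82.5 and 63.4 CPM of Cyp2b2, a narrow band that overlapped with the IMZ group and lay below the THI, CTD, THI + IMZ and THI + CTD groups. The lowest treated rat was 5.25-fold above the highest control.

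**Figure D1:**
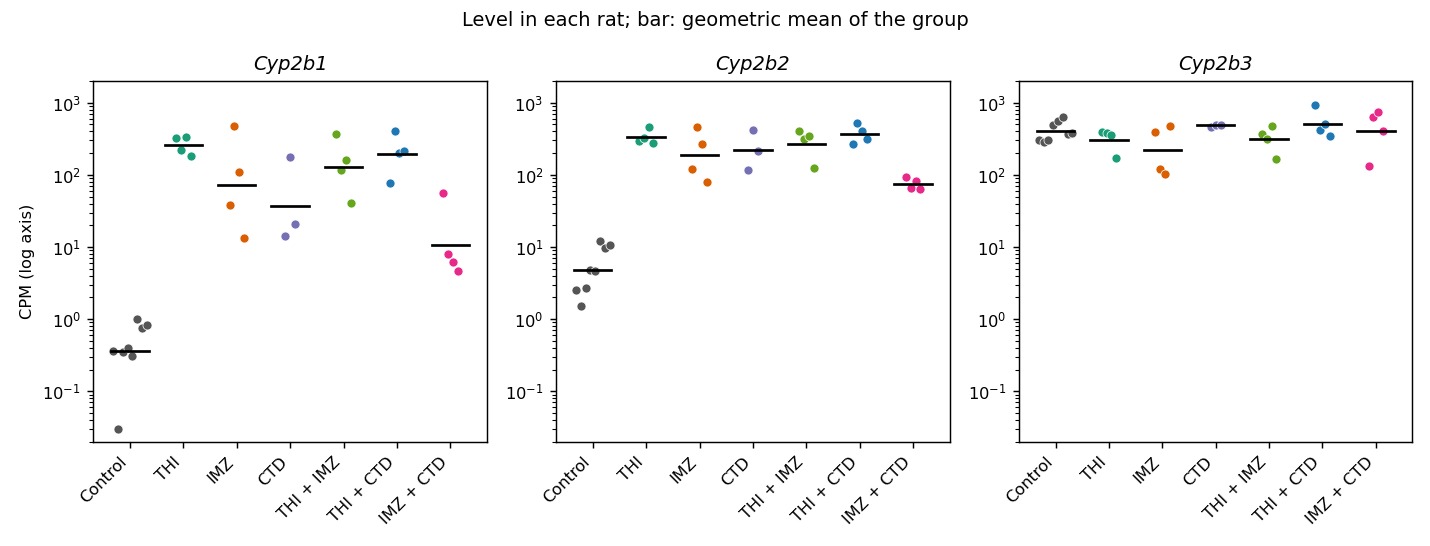
CPM on a log axis (vertical) of Cyp2b1, Cyp2b2 and Cyp2b3 in each of the 31 rats, by group (horizontal); each point is 1 rat and each bar the geometric mean of its group. All 23 treated rats lie above all 8 controls for Cyp2b1 (lowest treated 4.62 CPM, highest control 0.998 CPM) and for Cyp2b2 (63.4 and 12.1 CPM), while the groups overlap for Cyp2b3.

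The first question was whether each compound or mixture changed the 2 genes against control, which was tested with edgeR's quasi-likelihood test over all 19904 genes with at least 2 counts. The 6 comparisons use the same 8 controls and are therefore not independent of each other. Both genes passed an adjusted p of 0.05 in all 6 comparisons. Of all tested genes, 0.377% were called higher and 0.166% lower with THI than in controls. These shares of higher and lower genes were 0.191% and 0.0603% with IMZ, 6.62% and 6.03% with CTD, 0.849% and 0.332% with THI + IMZ, 2.67% and 1.71% with THI + CTD, and 1.0% and 0.452% with IMZ + CTD. Against these shares, 2 of 2 members were higher in each comparison. Genes with all treated rats above all controls made up 0.734%, 0.713%, 5.33%, 0.794%, 2.14% and 1.61% of tested genes in the same order, with Cyp2b1 and Cyp2b2 among them each time. Over all 6 treatments, 0.0653% of tested genes had all 23 treated rats above all 8 controls, Cyp2b1 and Cyp2b2 included.

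Under THI the log2 fold change of Cyp2b1 was 9.02 ± 0.88 (SE; edgeR adjusted p = 9.5e-08), from a mean of 0.504 ± 0.325 CPM (SD, n = 8) to 264 ± 75.9 CPM (n = 4). IMZ raised it by 8.28 ± 0.86 on the log2 scale (edgeR adjusted p = 3.68e-07) to a mean of 158 ± 213 CPM (SD, n = 4). CTD raised it by 7.13 ± 0.86 (edgeR adjusted p = 1.19e-06) to 71.2 ± 93.1 CPM (SD, n = 3). In IMZ and CTD the SD thus exceeded the mean, and the mean followed the 1 high rat. Without IMZ replicate 2 the log2 fold change under IMZ was 6.72, and without CTD replicate 2 that under CTD was 5.10.

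The mixtures with THI did not separate from THI itself for Cyp2b1, which was higher in THI by 0.61 than in THI + IMZ (95% interval −1.03 to 2.26) and by 0.24 than in THI + CTD (−1.40 to 1.88). Against control, the log2 fold change was 8.41 ± 0.87 for THI + IMZ (edgeR adjusted p = 3.48e-07) and 8.78 ± 0.88 for THI + CTD (edgeR adjusted p = 9.33e-08). Without THI + IMZ replicate 1 that of THI + IMZ was 7.70. IMZ + CTD raised it by 5.20 ± 0.82 (edgeR adjusted p = 0.000718), to a mean of 18.7 ± 24.7 CPM (SD, n = 4). Without IMZ + CTD replicate 1, the rat at 55.6 CPM, the log2 fold change was 3.64 and the adjusted p 0.0124.

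The log2 fold change of Cyp2b2 was 5.80 ± 0.45 under THI (edgeR adjusted p = 6.46e-10), 5.26 ± 0.44 under IMZ (9.96e-09) and 5.36 ± 0.46 under CTD (2.76e-09). For the mixtures it was 5.61 ± 0.45 in THI + IMZ (edgeR adjusted p = 2.5e-09), 5.96 ± 0.45 in THI + CTD (3.67e-10) and 3.65 ± 0.43 in IMZ + CTD (7.57e-06). Its group means went from 6.09 ± 4.13 CPM (SD, n = 8) in controls to between 76.6 ± 14.2 CPM in IMZ + CTD and 379 ± 113 CPM in THI + CTD (n = 4 each). Without CTD replicate 2 the log2 fold change under CTD was 4.75. The smaller fold changes of Cyp2b2 thus started from a control level that was better measured than that of Cyp2b1.

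Because the genes are near-identical, reads could be assigned to one in place of the other, and how far that happened was not tested. The counts of both genes were therefore also summed into 1 row and fitted again. The summed row rose by 6.52 ± 0.54 on the log2 scale under THI, by 5.89 ± 0.53 under IMZ, by 5.60 ± 0.54 under CTD, by 6.15 ± 0.53 in THI + IMZ, by 6.51 ± 0.54 in THI + CTD and by 3.85 ± 0.50 in IMZ + CTD. The largest of the 6 edgeR adjusted p-values was 6.32e-05, for IMZ + CTD. The rise of the summed counts against control thus did not rest on how reads were divided between the pair. In the controls that sum was mostly Cyp2b2, with 2845 counts against 242 of Cyp2b1. A rise of Cyp2b2 alone would therefore also raise it, and the sum cannot show a rise of Cyp2b1 itself. How much of the fitted Cyp2b1 rise came from reads of Cyp2b2 was not tested. The study kept uniquely mapped reads for its analyses, so reads that map equally well to both genes would not have been counted. Summing does not bring such reads back, and their number was not tested. As in any bulk tissue, more cells with these mRNAs and more mRNA per cell cannot be told apart.

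**Figure D2:**
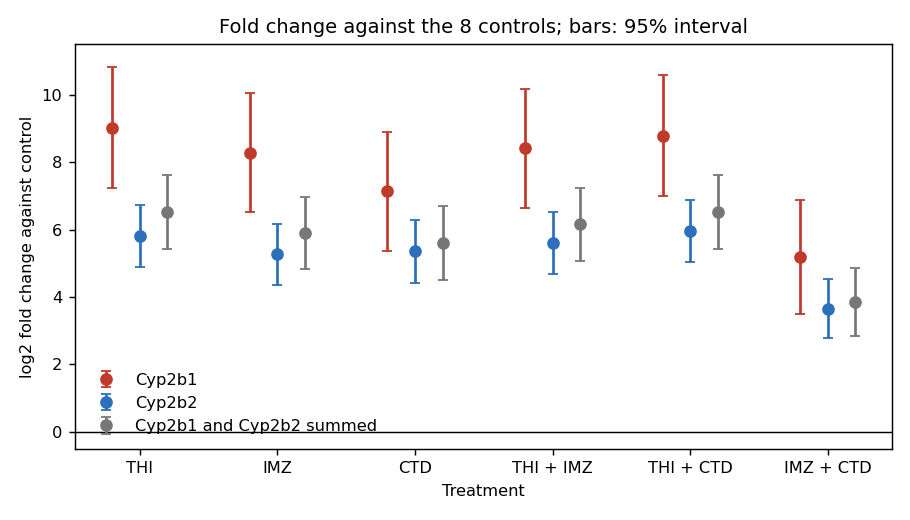
Log2 fold change against the 8 controls (vertical) in the 6 treatments (horizontal) for Cyp2b1, Cyp2b2 and both genes summed; points are edgeR estimates and bars their 95% intervals. IMZ + CTD has the lowest estimate of all 6 treatments for Cyp2b1 (5.20), for Cyp2b2 (3.65) and for the sum (3.85).

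The next question was whether the treatments differed from one another. By geometric mean, the order of Cyp2b1 levels was THI (256 CPM), THI + CTD (192), THI + IMZ (130), IMZ (71.7), CTD (37.4) and IMZ + CTD (10.7), above control (0.361). For Cyp2b2 it was THI + CTD (366 CPM), THI (332), THI + IMZ (271), CTD (218), IMZ (186) and IMZ + CTD (75.6), above control (4.82). The 3 groups that received THI held the first 3 places for both genes, but no neighbours among the 6 treatments passed the edgeR test after adjustment over all genes (adjusted p of 0.228 or more for Cyp2b1 and 0.303 or more for Cyp2b2). The lowest neighbours had intervals above 0 before that adjustment, CTD minus IMZ + CTD for Cyp2b1 (1.93, 95% interval 0.13 to 3.74) and IMZ minus IMZ + CTD for Cyp2b2 (1.61, 0.59 to 2.64). IMZ + CTD and control, the last neighbours, did differ for both genes.

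All 15 pairs of treatments were compared, and with p-values adjusted over all genes none passed 0.05 for either gene in the edgeR test. At an unadjusted p under 0.05 there were 6 pairs for Cyp2b1 and 5 for Cyp2b2, and IMZ + CTD was the lower group in 5 of the 6 and in all 5. DESeq2's Wald test called 2 of these pairs for Cyp2b1 and 4 for Cyp2b2. The share of all tested genes called in the edgeR comparisons with IMZ + CTD was 0.176% for THI, 0.0% for IMZ, 5.53% for CTD, 0.0653% for THI + IMZ and 0.176% for THI + CTD. In the comparisons of CTD with THI, IMZ, THI + IMZ and THI + CTD it was 6.62%, 4.67%, 6.29% and 2.67%. In those left, it was 0.01% for THI against IMZ and against THI + IMZ, 0.106% for THI against THI + CTD, 0.0502% for IMZ against THI + IMZ, 0.00502% for IMZ against THI + CTD and 0.171% for THI + IMZ against THI + CTD. Most pairs of treatments without CTD alone thus had few called genes of any kind.

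Against IMZ + CTD, the THI rats had 3.83 ± 0.91 more Cyp2b1 on the log2 scale (95% interval 1.98 to 5.68; edgeR adjusted p = 0.0649, DESeq2 0.0074). For Cyp2b2 the same difference was 2.15 ± 0.51 (1.1 to 3.19; edgeR adjusted p = 0.0649, DESeq2 0.0103). THI + CTD exceeded IMZ + CTD by 3.59 for Cyp2b1 (1.76 to 5.42; edgeR adjusted p = 0.0938, DESeq2 0.0152) and by 2.31 for Cyp2b2 (1.26 to 3.36; edgeR adjusted p = 0.0523, DESeq2 0.00515). The intervals lay above 0, while the calls on these differences depended on the test and on the groups in the fit. The main fit gives each gene 1 dispersion for all 7 groups, so its SEs also carry the scatter of groups not compared. With only the groups compared in the edgeR fit, the Cyp2b2 SE for THI was 0.176 (edgeR adjusted p = 0.00051). For THI + CTD it was 0.192 (edgeR adjusted p = 0.000169). For Cyp2b1 that fit called THI (SE 0.685, edgeR adjusted p = 0.0309) and not THI + CTD. CTD exceeded IMZ + CTD by 1.71 for Cyp2b2 (0.62 to 2.79; edgeR adjusted p = 0.0525, DESeq2 0.0349). For Cyp2b1 that difference was 1.93 with an interval from 0.13 to 3.74, and without CTD replicate 2 it was −0.10. With the counts of the pair summed, THI exceeded IMZ + CTD by 2.66 (1.43 to 3.90; edgeR adjusted p = 0.054).

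THI and IMZ at their full doses did not separate. The log2 difference, THI minus IMZ, was 0.74 for Cyp2b1 (95% interval −0.91 to 2.39; edgeR adjusted p = 0.964) and 0.54 for Cyp2b2 (−0.47 to 1.54; edgeR adjusted p = 0.92). Without IMZ replicate 2, the highest IMZ rat for both genes, it was 2.30 for Cyp2b1 and 1.12 for Cyp2b2. THI, a neonicotinoid with a thiazolidine ring and a cyanoimine group, and CTD, a neonicotinoid nitroguanidine, differed by 1.89 for Cyp2b1 (0.01 to 3.78; edgeR adjusted p = 0.256). For Cyp2b2, THI minus CTD was 0.44 (−0.65 to 1.53; edgeR adjusted p = 0.715), at doses of 108 and 288 mg/kg. These intervals leave room for differences of several-fold in Cyp2b1 and do not show that the compounds act alike. Without CTD replicate 2, THI minus CTD was 3.92 for Cyp2b1 with an edgeR adjusted p of 0.0344.

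**Figure D3:**
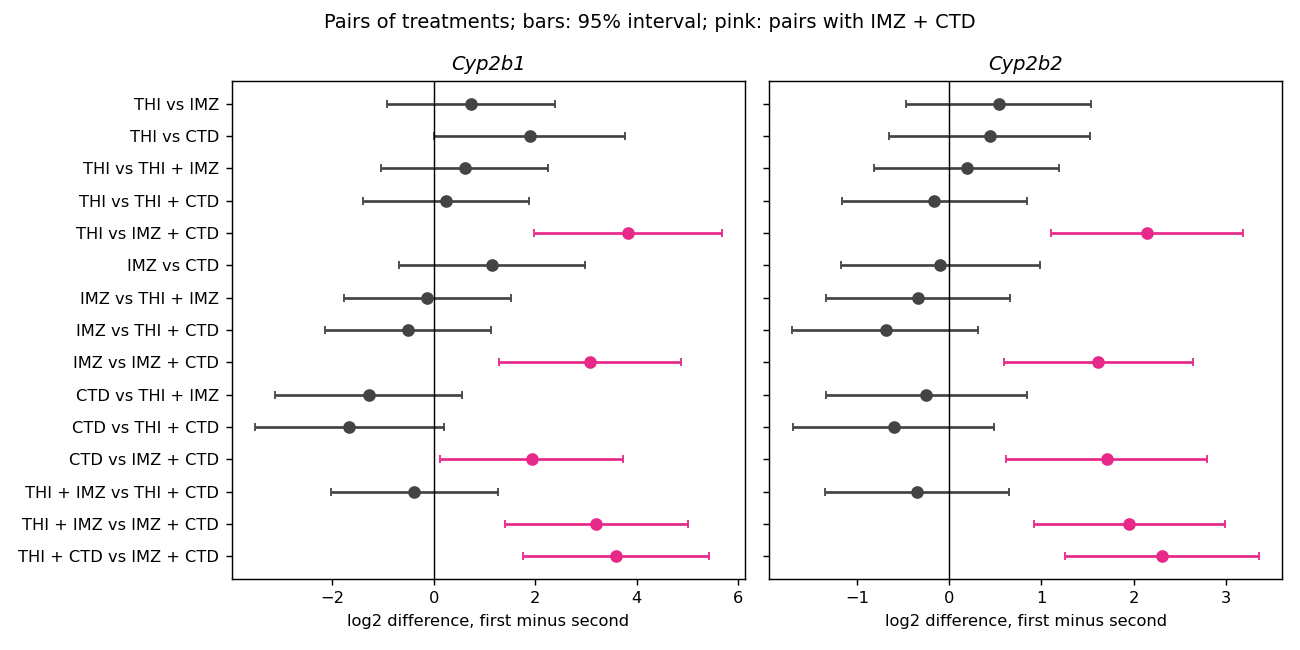
Log2 difference (horizontal), first minus second treatment, of Cyp2b1 and Cyp2b2 for the 15 pairs of treatments (vertical); points are edgeR estimates, bars their 95% intervals, and pink marks the pairs with IMZ + CTD. The 5 pink estimates lie above 0 in both panels, from 1.93 to 3.83 for Cyp2b1 and from 1.61 to 2.31 for Cyp2b2.

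Each mixture combined its compounds at reduced doses, and the study set mixtures against the log2 fold changes expected from the single compounds. The expected value was the sum of the single log2 fold changes weighted by 0.5 for THI, 0.5 for IMZ and 0.47 for CTD. THI + IMZ departed from it by −0.24 ± 0.70 for Cyp2b1 (edgeR adjusted p = 1.0) and by 0.08 ± 0.42 for Cyp2b2 (edgeR adjusted p = 1.0). THI + CTD departed by 0.92 ± 0.69 (edgeR adjusted p = 0.699) and by 0.54 ± 0.42 (edgeR adjusted p = 0.72). The 95% intervals of all 4 departures contained 0. Of all tested genes, 0.0151% in THI + IMZ, 0.286% in THI + CTD and 1.16% in IMZ + CTD were called off the weighted sum.

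IMZ + CTD fell below the weighted sum for both genes without passing the threshold. The departure was −2.30 ± 0.80 for Cyp2b1 (95% interval −3.93 to −0.66; edgeR unadjusted p = 0.00734, adjusted p = 0.163). It was −1.50 ± 0.46 for Cyp2b2 (−2.44 to −0.56; edgeR unadjusted p = 0.00279, adjusted p = 0.102), and DESeq2's Wald test gave an adjusted p of 0.0356. On the CPM scale the weighted single means came to 112 CPM of Cyp2b1 and 235 CPM of Cyp2b2, against measured means of 18.7 ± 24.7 CPM and 76.6 ± 14.2 CPM (SD, n = 4). All 4 IMZ + CTD rats were below the weighted mean for each gene. The weighted mean of Cyp2b1 leaned on IMZ replicate 2 and CTD replicate 2, and without the latter its departure was −1.34 on the log2 scale.

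The pair did not rise in proportion under THI, IMZ, THI + IMZ and THI + CTD. In CTD and IMZ + CTD no change of their ratio passed the test. The ratio of Cyp2b1 to Cyp2b2 counts within a library needs no scaling between libraries. Its level also depends on gene length and on how many reads map uniquely to each gene. Only its change between groups is therefore described. The geometric mean ratio was 0.0751 in the controls (range 0.02 to 0.141). It was 0.772 under THI (0.66 to 1.11), 0.385 under IMZ (0.17 to 1.01), 0.479 in THI + IMZ (0.332 to 0.919) and 0.523 in THI + CTD (0.284 to 0.767). All rats of these 4 groups were above all controls.

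In those 4 groups the mean log2 ratio exceeded the control mean of −3.74 ± 0.86 (SD, n = 8) by 3.36, 2.36, 2.67 and 2.80, in the order THI, IMZ, THI + IMZ and THI + CTD. The exact two-sided permutation p was 0.002 in each case, the smallest that 495 regroupings allow, and 0.003 after adjustment over the 6 tests. In CTD the difference was 1.19 (exact permutation p = 0.1, adjusted 0.12) and in IMZ + CTD it was 0.91 (exact permutation p = 0.25, adjusted 0.25). In both of these groups 1 rat stood above all controls, at ratios of 0.424 and 0.594, and the others lay within the range of the controls, between 0.073 and 0.122. These were CTD replicate 2 and IMZ + CTD replicate 1, the rats with the most Cyp2b1 of their groups. Whether the ratio changes differed between treatments was not tested.

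**Figure D4:**
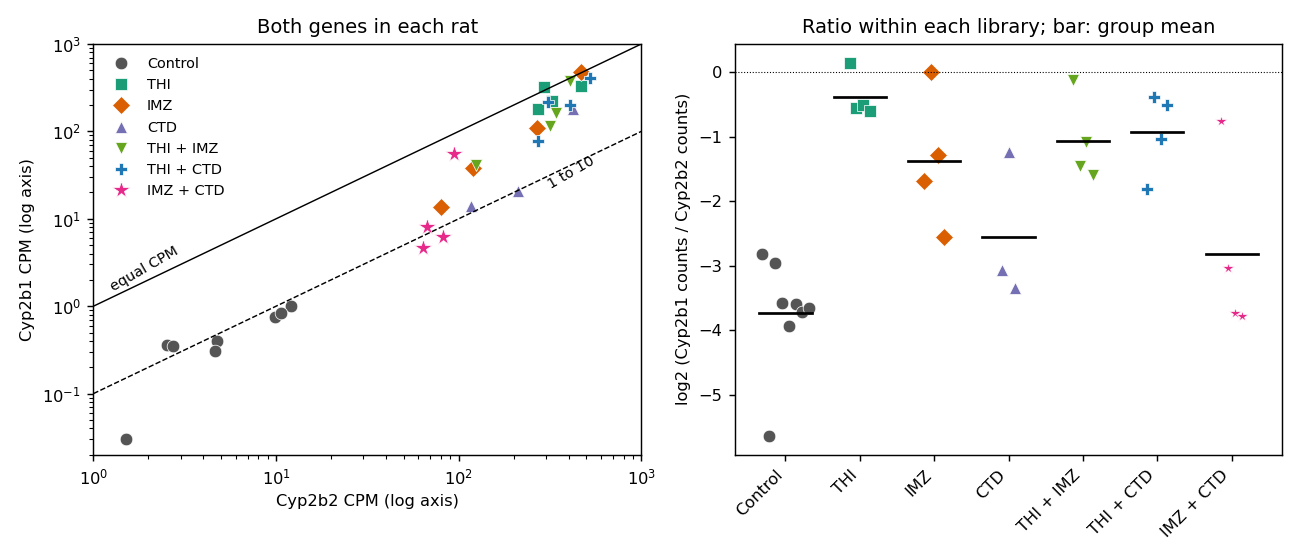
Left, CPM of Cyp2b1 (vertical) against CPM of Cyp2b2 (horizontal) in each rat, both on log axes, with lines at equal CPM and at 1 to 10. Right, log2 ratio of Cyp2b1 to Cyp2b2 counts (vertical) in each rat by group (horizontal), with a bar at the group mean, from −3.74 in controls to −0.37 under THI.

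Rats of 1 group differed in these genes far more than in most others. The SD of log2 CPM within groups was 1.43 for Cyp2b1 and 0.84 for Cyp2b2. The median was 0.19 over the 11297 genes with an average log2 CPM above 0, which put Cyp2b1 37th and Cyp2b2 169th. Cyp2b1, with a geometric mean of 0.361 CPM in controls, was above that floor only through the treated rats. Its SD includes the counting error of those controls. Between the lowest and the highest rat of a group, Cyp2b1 spanned 33.1-fold in controls, down to the library with 1 count, 34.9-fold under IMZ, 12.8-fold under CTD, 12.0-fold in IMZ + CTD, 9.08-fold in THI + IMZ, 5.21-fold in THI + CTD and 1.84-fold under THI. For Cyp2b2 the spans were 8.0-fold, 5.88-fold, 3.60-fold, 1.48-fold, 3.28-fold, 1.93-fold and 1.71-fold in the same order, widest in the controls.

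The 2 genes varied together from rat to rat. Among the 8 controls, log2 CPM of Cyp2b1 and Cyp2b2 had a Pearson r of 0.89 (exact permutation p = 0.0014, adjusted over 2 coefficients 0.0028) and a Spearman rho of 0.90 (exact permutation p = 0.0046, adjusted 0.0046). Without the rats farthest from the median, control replicates 2 and 6, r was 0.88. Cyp2b1 rested on 1 to 66 counts per library in the controls. Reads of Cyp2b2 counted as Cyp2b1 would also make the 2 levels vary together, and their share was not tested. Among the 23 treated rats r was 0.93 and a unit of log2 Cyp2b2 went with 1.92 units of log2 Cyp2b1, given as a description over rats that share groups.

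Genes whose levels were most like those of the pair were ranked by Pearson r of log2 CPM over all 31 rats, as a description in which the step from control to treated enters every value. For Cyp2b1 they were Cyp2b2 (0.97), Abcc3 (0.93), Grin2c (0.89), Aldh1a1 (0.89) and Ugt1a2 (0.87). For Cyp2b2, after Cyp2b1, they were Abcc3 (0.93), Aldh1a1 (0.92), Grin2c (0.90) and Mme (0.88). Grin2c, an NMDA receptor subunit gene, rose from 0.170 ± 0.103 CPM (SD, n = 8) in controls to 9.0 ± 4.32 CPM under THI and 1.94 ± 0.607 CPM in IMZ + CTD (n = 4 each). Mme, which encodes the peptidase neprilysin, rose in all 6 comparisons by 3.07 to 4.85 on the log2 scale. The lowest correlations were those of Sema4a with Cyp2b1 (−0.76) and of Megf11 with Cyp2b2 (−0.80).

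With group means removed, the ranking used only differences among rats of the same group. The genes most like Cyp2b1 were then Cyp2b2 (0.85), Ccdc41, Dgkd and Slco2a1 (0.74 each) and Xylt2 (0.72). Those most like Cyp2b2 were Slco2a1 (0.85), Cyp2b1 (0.85), Enpp3 (0.79), Arnt (0.71) and Cyb5r3 (0.69). Slco2a1, a prostaglandin transporter gene, was on both lists while it passed the edgeR test in none of the 6 comparisons with control (smallest adjusted p = 0.0699, log2 fold change −0.34 under CTD). These coefficients were the highest of 10969 genes with a symbol and an average log2 CPM above 0, over 31 rats, and carry no p.

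Cyp2b3 lies in the same cluster and did not follow the pair. Its mean was 419 ± 133 CPM (SD, n = 8) in controls and between 272 ± 187 CPM (IMZ) and 550 ± 264 CPM (THI + CTD) in the treatments (n = 4 each). Its log2 fold change against control lay between −0.62 and 0.39, and the edgeR adjusted p was 0.592 or more in the 6 comparisons. Cyp2b3 was not constant among rats, however, with a within-group SD of 0.72 on the log2 scale. In IMZ + CTD it was 134 CPM in replicate 1, which had the most Cyp2b1 of that group, and 628, 746 and 412 CPM in the others. Over all rats, deviations of Cyp2b3 from its group means correlated with those of Cyp2b1 at −0.33 and with those of Cyp2b2 at −0.04, as a description. Cyp2b12 and Cyp2b21, further family members, had an average log2 CPM of −4.32 and −4.38 and passed in none of the comparisons.

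The wider set of genes known as CAR and PXR targets was counted from a fixed list, of which 22 genes beside Cyp2b1 and Cyp2b2 could be tested. Of these, 11 were higher under THI, 6 under IMZ, 10 under CTD, 8 in THI + IMZ, 14 in THI + CTD and 4 in IMZ + CTD, and none was lower in the edgeR test. Beside these counts stand the shares of all tested genes called higher, 0.377%, 0.191%, 6.62%, 0.849%, 2.67% and 1.0% in that order. The count under THI was 7 without THI replicate 3. The median log2 fold change of the 22 was 0.71, 0.55, 0.52, 0.70, 0.86 and 0.32 in that order, while the median of all tested genes lay between −0.07 and −0.01. The list had its fewest calls and its lowest median in IMZ + CTD, where Cyp2b1 and Cyp2b2 rose least, and whether it differed between treatments was not tested.

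Among the transporters, Abcc3, an efflux pump for conjugated compounds, rose by 1.65 in IMZ + CTD to 2.82 in THI + CTD and passed in all 6 comparisons. Cyp3a23/3a1, the classical PXR-responsive P450, passed in all 6 and rose by 2.28 in IMZ + CTD to 3.80 under IMZ, from low levels with an average log2 CPM of −0.02. Its smallest rise was thus in the same mixture as that of the pair. Its largest was under IMZ, where that of Cyp2b1 was under THI and that of Cyp2b2 in THI + CTD. Aldh1a1, a retinaldehyde dehydrogenase gene, rose by 1.49 to 2.47 in all 6 comparisons. Gstm1, a glutathione transferase gene, rose by 0.96 to 1.4 in all 6. Ugt2b17, the table's symbol for the listed glucuronosyltransferase gene Ugt2b1, passed in 5, and Ephx1, the microsomal epoxide hydrolase, in 4. Cyp2c7 was the most abundant listed gene that passed in none, with log2 fold changes between −0.08 and 0.21. The fold changes of the pair thus exceeded those of all other listed targets in each treatment.

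**Figure D5:**
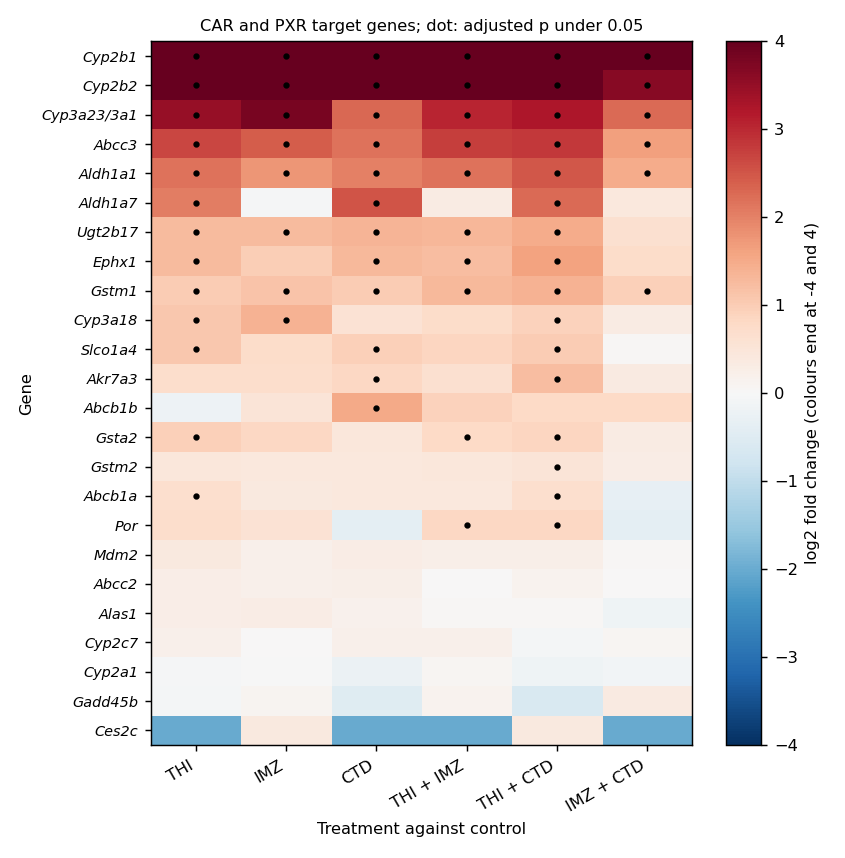
Log2 fold change against control (colour, ending at −4 and 4) of the 24 tested CAR and PXR target genes (vertical) in the 6 treatments (horizontal); a dot marks an edgeR adjusted p under 0.05. Cyp2b1 and Cyp2b2 are at the top with a dot in every column, and Cyp3a23/3a1, Abcc3, Aldh1a1 and Gstm1 are the other genes with 6 dots.

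Among 29 tested receptors and partners of the pathway, Nr1i3 (CAR) itself was higher in 3 comparisons. It rose by 1.1 under CTD (edgeR adjusted p = 0.00987), by 1.24 in THI + IMZ (0.0122) and by 1.37 in THI + CTD (0.00195), while its log2 fold change was 0.93 under THI (0.153), 0.21 under IMZ (0.87) and 0.61 in IMZ + CTD (0.335). Under THI the unadjusted edgeR p was 0.00153, and the relation of Nr1i3 to the rise of the pair was not tested. Nr1i2 (PXR), named after its values were seen, was lower in IMZ + CTD (log2 fold change −0.37, edgeR adjusted p = 0.0368) and did not pass in the other 5. Rxrg, a retinoid X receptor gene, was lower under THI (−0.46) and CTD (−0.51). Rxra, a more abundant retinoid X receptor gene, was lower under CTD (−0.34, edgeR adjusted p = 0.00801). Under CTD, 4 of the 29 genes were higher and 5 lower, beside 6.62% and 6.03% of all tested genes. Foxo1, Ncoa2 and Dnajc7 were also lower there, and Ppp2ca, Ppp2cb and Med1 (0.27) were higher beside Nr1i3. Rxra, Ppp2cb and Med1 were likewise named after their values were seen. Hsp90ab1, the chaperone gene of the cytosolic CAR complex, passed in none.

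Among the 9 tested genes of electron supply and microsomal partners, Por, the reductase that serves all microsomal P450s, was higher in THI + IMZ by 0.82 (edgeR adjusted p = 0.0338) and in THI + CTD by 0.84 (0.0122). Under CTD and in IMZ + CTD its log2 fold change was −0.39 and −0.40, not past the test. Cyb5a, cytochrome b5, was higher under CTD and in THI + IMZ, and Pgrmc1, a heme-binding P450 partner, in 3 comparisons. Calr passed in none. Of the 9 genes, 1 was higher under THI, 3 under CTD, 4 in THI + IMZ and 3 in THI + CTD. None of them was lower in any comparison. Beside these counts, 0.377%, 6.62%, 0.849% and 2.67% of all tested genes were higher, in that order. Of 13 genes of heme synthesis and breakdown, Alas1, the rate-limiting enzyme of heme synthesis, passed in none (log2 fold change −0.18 to 0.31), and Alad, Urod and Slc25a38 were lower under CTD by 0.31 to 0.56 on the log2 scale. These 3 of 13 genes stand beside 6.03% of all tested genes called lower under CTD. The heme pathway thus showed no increase past the test in any treatment in which the P450 pair rose.

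Phenobarbital-type induction is classically strongest around the central vein, so zonal genes were read beside the pair. Of 12 pericentral genes, at most 1 was higher and at most 2 lower in any comparison, and Cyp7a1, the rate-limiting enzyme of bile acid synthesis, was lower under THI (log2 fold change −2.45) and in THI + IMZ (−2.90). Oat was lower under THI and in THI + CTD, Rhbg was higher under CTD and in THI + CTD, and Cyp2e1 passed in none. Of 12 periportal genes, 5 were lower under CTD (Hal, Cdh1, Sds, Ass1 and Asl) and 2 in THI + CTD (Hal and Cdh1), with Cps1 passing in none. Of all tested genes, 0.166% were lower under THI, 0.332% in THI + IMZ, 6.03% under CTD and 1.71% in THI + CTD. The shares of higher genes were 6.62% under CTD and 2.67% in THI + CTD. No zonal gene passed in all 6 comparisons, as Cyp2b1 and Cyp2b2 did.

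The tissue label was matched by hepatocyte markers, whose summed level was 175000 to 265000 CPM in every library, with Alb the most abundant of them and passing in no comparison. Apoa1 was higher in THI + IMZ, Tat was lower under CTD and in THI + CTD, and Serpina1 was lower in THI + CTD. That was 1 of 10 markers higher in THI + IMZ, 1 lower under CTD and 2 lower in THI + CTD. The shares of all tested genes were 0.849%, 6.03% and 1.71% in that order. The 20 tested markers of other cells summed to 836 to 1240 CPM in controls and 687 to 1020 CPM in treated rats. Hbb was higher and the pancreatic gene Cpa1 lower under CTD and in THI + CTD, Col3a1 was higher and Cd68 lower under CTD, Col1a1 was higher in THI + CTD, and the Kupffer cell gene Clec4f passed in none. Under THI the log2 fold change of Cpa1 was −1.64 (edgeR unadjusted p = 0.00199, adjusted p = 0.173), beside −1.90 under CTD and −1.82 in THI + CTD. Among the 20 markers of other cells, 2 were higher and 2 lower under CTD, beside 6.62% and 6.03% of all tested genes. In THI + CTD 2 were higher and 1 lower, beside 2.67% and 1.71%. The part of these differences in the Cyp2b results was not tested.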

How the data were processed

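Liver RNA of 31 rats was sequenced with a stranded total RNA kit on a NovaSeq. The authors trimmed reads with Skewer, checked them with FastQC 0.11.5, mapped them to Rnor_5.0 with STAR 2.5.2b and deposited raw counts per gene. The strand setting and annotation release are not given in the sources used here. Their second table is a signal, which the authors made by dividing the counts of 19904 genes with a sum of at least 2 by DESeq2 size factors. It was used as a check and as an alternative scale.

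Tests used edgeR 4.0.16 in R 4.3.3 on the deposited counts, with TMM, a sum of at least 2 counts, 1 mean for each of 7 groups, the quasi-likelihood test and Benjamini-Hochberg adjustment over all genes. The standard error came from the log2 fold change and the root of its F statistic, and log2 CPM used a prior count of 2. Scripts were tested on simulated data. Count ratios were compared by exact permutation in scipy 1.17.1. Alternatives were DESeq2 1.42.0, other scaling and filters, thinned counts, fewer groups, a replicate block, leaving out each rat and, chosen after seeing the data, summed counts of the pair. Groups and replicate numbers come from the sample labels. Libraries held 31.8 M to 101.2 M counts. Intervals of single counts cover counting error only, and group values carry the spread among rats.

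The members and gene lists were chosen with earlier results of these data known. Of 141 listed genes, 127 were tested. Named were the Cyp2b genes, up to 6 genes per list with the most comparisons past the threshold plus the most abundant that passed in none, and the 5 genes most like each of the pair. Promoter sequences are from RefSeq (GRCr8), where all 3 Cyp2b genes shown matched by symbol. Positions on Rnor_5.0 were not used here.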

Additional observations from a re-analysis of the deposited data

Results flagged for a closer look

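In 24 groups of 4 to 8 rats a Dixon test asked whether the highest or lowest rat stood apart, and chance alone flags about 1 group in 20. It singled out 4 values. The log2 CPM of Cyp2b1 in control replicate 2 had a gap of 0.586 of the group's range. That library had 1 Cyp2b1 count and 50 Cyp2b2 counts, and its log2 ratio was likewise set apart (0.608 of the range). The count ratio of 0.02 has an exact 95% interval from 0.000497 to 0.117, which overlaps with the intervals of all other controls. The log2 ratio of THI replicate 1 stood apart from the other THI rats (0.862 of the range), with more Cyp2b1 than Cyp2b2 counts (ratio 1.11) where the others had 0.66 to 0.709. The log2 CPM of Cyp2b3 in THI replicate 4 stood apart (0.898 of the range), at 170 CPM against 362 to 395 CPM in the others.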

How the results depend on the processing

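All 12 calls of Cyp2b1 and Cyp2b2 against control were kept under the 7 alternatives of scaling, test, filter, depth and samples and without any 1 rat. Their log2 fold changes were 3.51 to 9.26 when a rat was left out. Depth limited the control level of Cyp2b1, which rested on 1 to 66 counts per library. The calls between treatments depended on the setting, and the cause was not tested. With DESeq2's Wald test, Cyp2b2 was higher than in IMZ + CTD by 2.14 in THI, 1.71 in CTD, 1.95 in THI + IMZ and 2.30 in THI + CTD, Cyp2b1 by 3.83 in THI and 3.59 in THI + CTD, and the departure of Cyp2b2 in IMZ + CTD from the weighted sum was −1.50. With only the groups compared in the fit, Cyp2b2 was higher than in IMZ + CTD by 2.15 in THI, 1.70 in CTD and 2.30 in THI + CTD, Cyp2b1 by 3.83 in THI, and 1 target gene was lower in IMZ + CTD than in control. The difference of CTD and IMZ + CTD in Cyp2b2 (1.71) was called with filterByExpr, and that of THI + CTD and IMZ + CTD without a filter (2.31) and with thinned counts (2.30).

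Of 78 same-numbered pairs of rats, 16 had correlated deviations over 0.1 (median 0.03). The labels do not say that replicate numbers pair the rats, and these values alone do not settle it. With the replicate block, Cyp2b2 was called higher than in IMZ + CTD by 2.11 in THI, 1.45 in CTD and 2.24 in THI + CTD, and the target genes called higher numbered 6 under THI and 5 in THI + IMZ. Paired by number, the log2 ratio differences were 3.37 (THI), 2.37 (IMZ), 2.69 (THI + IMZ) and 2.81 (THI + CTD), each with an exact permutation adjusted p of 0.19, since 4 pairs cannot reach 0.05. Against control, the block gave Cyp2b2 log2 fold changes of 6.73 (THI), 6.04 (IMZ), 6.07 (CTD), 6.52 (THI + IMZ), 6.86 (THI + CTD) and 4.63 (IMZ + CTD), each over 1.5 times the unblocked fold, and those of Cyp2b1 were 5.67 to 9.80. Replicate numbers 5 to 8 occur only among the controls, so in the blocked fit only controls 1 to 4 bear on these fold changes. Cyp2b2 was 2.53, 1.51, 2.71 and 4.76 CPM in those, and 4.64, 12.1, 9.84 and 10.6 CPM in controls 5 to 8. The block changed no other call of these results.

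Leaving out each rat in turn gave these ranges of log2 differences between treatments. For Cyp2b1 they were 1.41 to 3.92 (THI minus CTD), −0.05 to 0.68 (THI minus THI + CTD), 3.51 to 5.38 (THI minus IMZ + CTD), −0.41 to 3.18 (IMZ minus CTD), −1.68 to 0.58 (IMZ minus THI + IMZ), −0.10 to 3.49 (CTD minus IMZ + CTD), −1.08 to 0.07 (THI + IMZ minus THI + CTD) and 3.14 to 5.14 (THI + CTD minus IMZ + CTD). For Cyp2b2 they were −0.07 to 0.38 (THI minus THI + IMZ), −0.35 to 0.04 (THI minus THI + CTD), 1.95 to 2.26 (THI minus IMZ + CTD), −0.68 to 0.51 (IMZ minus CTD), −0.85 to 0.09 (CTD minus THI + IMZ), 1.10 to 2.05 (CTD minus IMZ + CTD) and 2.11 to 2.44 (THI + CTD minus IMZ + CTD). Off the weighted sum, THI + IMZ ranged from −0.95 to 0.53 for Cyp2b1 and −0.11 to 0.37 for Cyp2b2, and IMZ + CTD from −3.85 to −1.34 for Cyp2b1. Without IMZ + CTD replicate 1, Cyp2b1 was called in IMZ + CTD against THI (adjusted p = 0.0154), CTD (0.0321), THI + CTD (0.0367) and the weighted sum (0.0308) by edgeR. The Cyp2b2 difference of THI + CTD and IMZ + CTD was called in 12 of 31 such fits, that of CTD in 8 and that of THI in 2, and the Cyp2b1 difference of THI and IMZ + CTD in 6. Target genes called higher under THI ranged from 7 to 12, the 7 without THI replicate 3.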
